A study of Mus musculus with 12 samples.

Results

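The chemokine receptor genes of mouse macrophages described here were Ccr1, Ccr2, Ccr3, Ccr7, Cxcr4 and Ccrl2. They were chosen by name, with earlier results of these data known. Each was read from the probe sets annotated to it, 1 for each of the 6 genes, out of 22180 genes measured. Total RNA of primary macrophages was hybridised to 12 one-colour arrays, in 4 groups of 3. KO TAMs were CD36 KO macrophages kept for 72 h in culture with 5TGM1, a mouse multiple myeloma line, and are called tumour-associated macrophages (TAMs) by the submitters. KO macrophages were CD36 KO cells without the myeloma line. WT TAMs were wild-type macrophages after the same 72 h of co-culture, and WT macrophages were wild-type cells without it. All groups shared the growth medium. A culture time for the cells without myeloma cells, the age and sex of the mice, the way in which the knockout was made, the origin of the macrophages in the body and the way in which myeloma cells were removed are not stated in the labels. The co-culture model holds no other cells of a tumour by design, and a difference between TAMs and macrophages may include time in culture.

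Chemokine receptors are G protein-coupled receptors that steer leukocytes along gradients of small secreted proteins, the chemokines. Ccr1, Ccr2 and Ccr3 bind overlapping sets of inflammatory CC chemokines, Ccr7 binds the homeostatic chemokines Ccl19 and Ccl21, and Cxcr4 binds Cxcl12, a chemokine of bone marrow stroma. Ccrl2 is an atypical receptor that does not signal through G proteins and presents chemerin to cells that carry the chemerin receptor Cmklr1. Ccr2 is best known for bringing monocytes into tissue, and Ccr7 for leading dendritic cells to lymph nodes.

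The bases before the annotated start of 4 of the genes are printed because 3 of them, Cxcr4, Ccr1 and Ccrl2, rose when WT cells were co-cultured, while Ccr3 was set apart by genotype. The sequences are RefSeq's for assembly GRCm38.p6 and hold the 250 bases before the start on the strand of the gene, 5′ to 3′. Capitals mark the motif matches named after them.
Cxcr4, chr1:128592300-128592549, minus strand: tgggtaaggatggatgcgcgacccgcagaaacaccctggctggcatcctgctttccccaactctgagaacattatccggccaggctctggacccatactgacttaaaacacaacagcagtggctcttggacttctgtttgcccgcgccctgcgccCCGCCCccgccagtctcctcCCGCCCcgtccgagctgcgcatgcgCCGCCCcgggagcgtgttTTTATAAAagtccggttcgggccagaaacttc
Ccr1, chr9:123968693-123968942, minus strand: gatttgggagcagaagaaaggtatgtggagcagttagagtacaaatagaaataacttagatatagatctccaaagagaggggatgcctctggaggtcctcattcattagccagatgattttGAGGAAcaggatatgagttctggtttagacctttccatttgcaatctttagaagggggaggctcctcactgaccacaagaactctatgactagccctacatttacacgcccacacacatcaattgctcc
Ccrl2, chr9:111057519-111057768, minus strand: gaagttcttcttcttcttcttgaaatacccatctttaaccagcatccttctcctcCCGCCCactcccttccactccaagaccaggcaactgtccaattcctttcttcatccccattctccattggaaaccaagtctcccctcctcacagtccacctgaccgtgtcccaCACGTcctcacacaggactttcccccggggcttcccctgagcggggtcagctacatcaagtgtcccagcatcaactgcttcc
Ccr3, chr9:124021721-124021970, plus strand: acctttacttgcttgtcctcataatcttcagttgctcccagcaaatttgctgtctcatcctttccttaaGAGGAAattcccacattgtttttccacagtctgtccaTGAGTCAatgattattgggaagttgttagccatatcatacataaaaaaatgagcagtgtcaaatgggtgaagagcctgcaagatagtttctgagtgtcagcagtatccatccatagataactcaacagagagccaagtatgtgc
A window of 300 bases, the 250 before and the 50 after the start, was in the table for 5 of the 6 genes and was searched for 5 motifs on both strands. TATAAA, the TATA box, was in 13.6% of all windows of that length, GGGCGG, the GC box, in 35.7%, ACGTG, the core of a hypoxia response element, in 19.6%, GAGGAA, a core of PU.1 sites, in 28.3%, and TGANTCA, the AP-1 site, in 7.81%. The Cxcr4 window held TATAAA on both strands in overlapping letters, with first bases at positions -32 and -30, and 3 copies of GGGCGG on the minus strand at -95, -75 and -50. The Ccr1 window held 1 GAGGAA at -129. The first of 3 Ccrl2 windows, the one printed, held 1 GGGCGG at -195 and 1 ACGTG at -82, both on the minus strand, and Ccr3 held GAGGAA at -181 and TGANTCA at -144. None of the 5 motifs was in the Ccr2 window. The GC content was 59.3% in the Cxcr4 window, 53.0% in the printed Ccrl2 window, 44.0% in that of Ccr1, 39.0% in that of Ccr3 and 38.0% in that of Ccr2, with a median of 52.7% over all windows. A letter match is a description of the window and not a bound site. In RefSeq's gene order, Xcr1, Ccr1, Ccr1l1, Ccr3 and Ccr2 followed each other on chromosome 9, whereas Ccrl2 lay elsewhere on that chromosome, Cxcr4 on chromosome 1 and Ccr7 on chromosome 11.

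The targeted gene Cd36, a scavenger receptor for fatty acids and oxidised lipoproteins, had log2 levels of 8.45, 9.66 and 8.64 in KO TAMs, against 12.14, 12.53 and 12.29 in WT TAMs, and of 8.79, 8.63 and 8.78 in KO macrophages, against 12.10, 12.13 and 12.15 in WT macrophages. The 6 KO arrays all lay below the 6 WT arrays. The macrophage genes Adgre1 and Cd68 were bright on all 12 arrays, at 12.16 to 12.83 and 12.05 to 13.07. Defining markers of eosinophils (Epx, Prg2, Il5ra and Ear6) lay between 2.79 and 4.58, of T cells (Cd3e, Cd3d and Cd3g) between 3.18 and 4.55, of plasma cells (Jchain, Mzb1, Tnfrsf17 and Pou2af1) between 3.28 and 5.49, and of neutrophils (Ly6g, S100a8, S100a9 and Camp) between 2.49 and 4.17. Of the dendritic list, Flt3, Zbtb46 and Xcr1 lay between 4.14 and 5.29. Other genes of these lists were brighter, so the lists as a whole were not dim. The highest value was 6.32 in the eosinophil list, 9.88 in the T and NK cell list and 10.29 in the neutrophil list. It was 11.68 in the plasma cell and myeloma list and 8.45 in the dendritic list. Xbp1 and Prdm1 of the plasma cell list had group means of 9.75 to 10.2 and 7.48 to 8.1. Several others are given below. KO TAM arrays differed among themselves more than arrays of the other groups did for several receptors, with array 1 and array 3 at opposite ends for Ccr1, Ccr3 and Cxcr4. Sex-linked genes split by genotype: between KO and WT macrophages the log2 difference was -6.86 for Xist and 6.57 for Uty, so genotype and sex cannot be told apart in any KO against WT comparison. In cultures measured in bulk, fewer cells of a type and less RNA per cell cannot be told apart.

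Cxcr4, Ccr1 and Ccrl2 rose in WT TAMs, and Cxcr4, Ccrl2 and Ccr3 rose in KO TAMs, each relative to macrophages of the same genotype. The 6 genes were chosen with earlier results known, so the counts and medians below describe them and test nothing about the family. In limma's model over all genes, 3 of the 6 receptors were called higher and 0 lower in KO TAMs than in KO macrophages, where 6.53% of all genes were called, 2.9% higher and 3.63% lower. In WT TAMs against WT macrophages 3 of 6 were called higher and 0 lower, where 11.5% of all genes were called, 5.89% higher and 5.66% lower. Between KO and WT macrophages Ccrl2 was called higher and Ccr3 lower, where 11.3% of all genes were called, 5.19% higher and 6.13% lower. Ccrl2 was also called higher and Ccr3 lower between KO and WT TAMs, where 12.2% of all genes were called, 5.03% higher and 7.19% lower. The arrays of the groups compared did not overlap for 3 of the 6 receptors in the KO co-culture comparison, where this held for 26.3% of all genes, for 3 in the WT one (30.1% of all genes), for 3 between KO and WT macrophages (38.5%) and for 2 between KO and WT TAMs (24.6%). The median log2 difference of the 6 receptors was 0.98 in the KO co-culture comparison and 0.69 in the WT one, beside -0.013 and 0.008 over all genes. Between KO and WT macrophages it was 0.05 for the receptors and 0.038 for all genes, and between KO and WT TAMs -0.04 and 0.024. For no receptor was the KO co-culture difference called apart from the WT one, a test that called 0.194% of all genes, and at an unadjusted p under 0.05 only Ccr3 passed, in limma's model. With a filter that left out genes with a mean log2 level under 4.43 5 of the 6 receptors remained and Ccr2 did not.

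**Figure D1:**
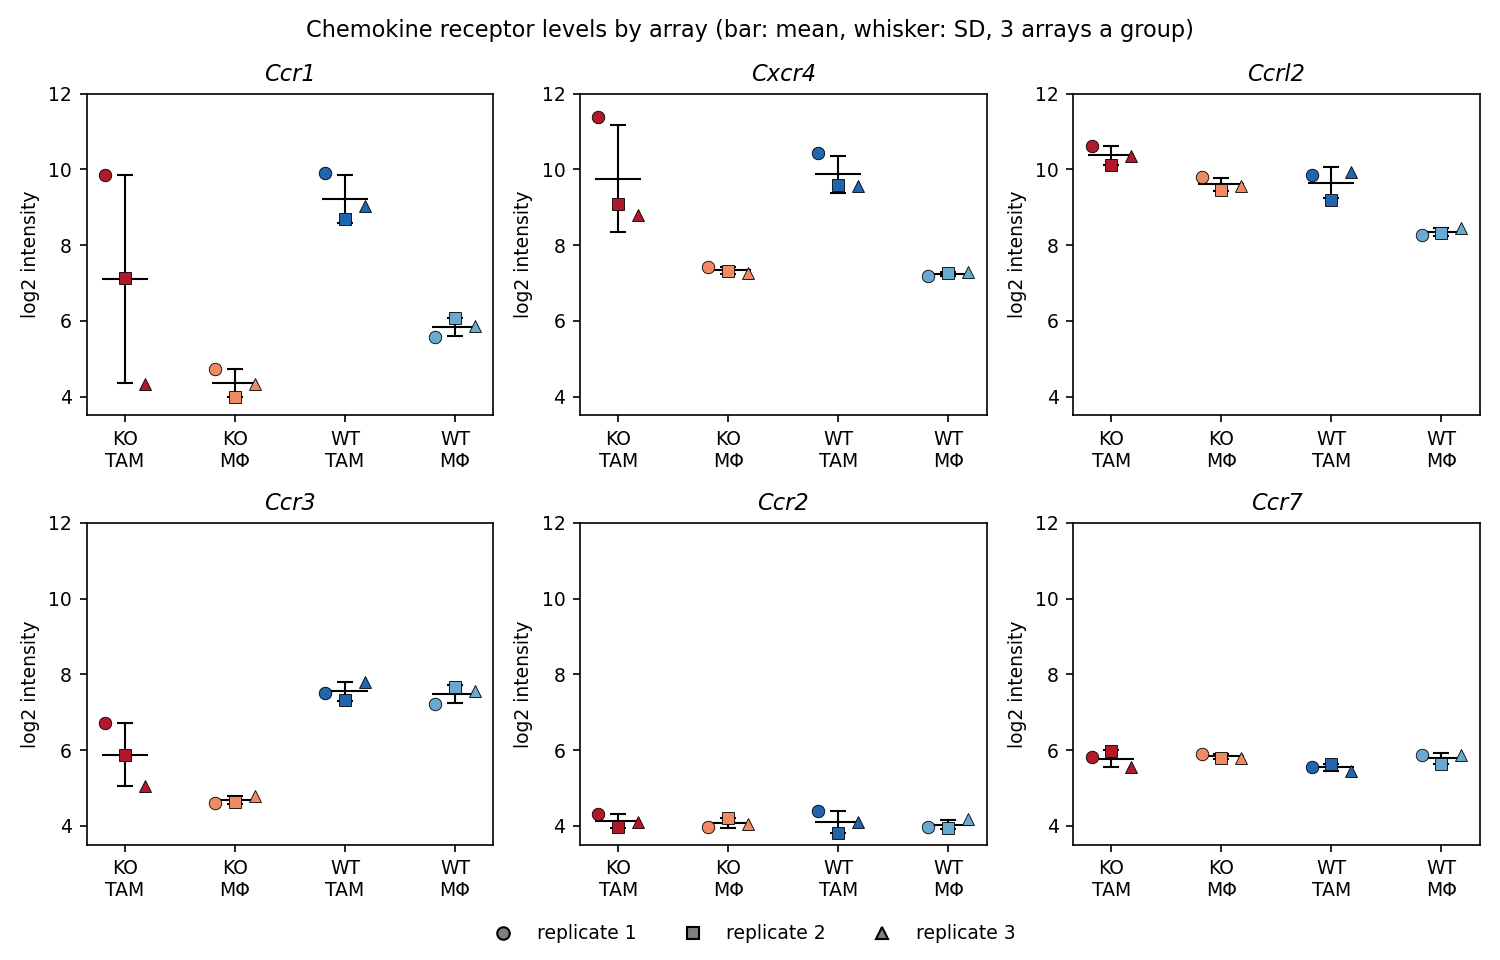
Log2 level (y axis, log2 intensity) of each of the 6 receptor genes on every array, with 1 panel per gene and the groups KO TAM, KO macrophage, WT TAM and WT macrophage along the x axis. Points are arrays and bars are group means with SD (n = 3). Cxcr4 lay between 8.79 and 11.38 on the 6 TAM arrays and between 7.17 and 7.43 on the 6 macrophage arrays, and Ccr2 stayed between 3.82 and 4.39 on all 12.

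Cxcr4, the receptor for Cxcl12 that holds many blood cells in the marrow, had log2 levels of 11.38, 9.09 and 8.79 in KO TAMs, against 7.43, 7.31 and 7.25 in KO macrophages. In WT TAMs it had 10.44, 9.58 and 9.57, against 7.17, 7.26 and 7.28 in WT macrophages. All 6 TAM arrays lay above all 6 macrophage arrays, and the highest value, on KO TAM array 1, stood well above its 2 companions. The group means were 9.75 ± 1.42 in KO TAMs, 7.33 ± 0.09 in KO macrophages, 9.86 ± 0.50 in WT TAMs and 7.24 ± 0.06 in WT macrophages (log2 level, SD, n = 3 each). Cxcr4 rose by 2.42 ± 0.51 (log2 difference, SE), or 5.37-fold, in KO TAMs (limma, adjusted p = 0.0159) and by 2.62 ± 0.51, or 6.16-fold, in WT TAMs (limma, adjusted p = 0.00587). The KO minus WT co-culture difference was -0.20 on the log2 scale (95% interval -1.77 to 1.37, limma, adjusted p = 0.962). It was -1.01 without KO TAM array 1 (adjusted p = 0.127), and -1.16 without both KO TAM array 1 and WT TAM array 2, where it passed (adjusted p = 0.0456). KO and WT macrophages differed by 0.09 (adjusted p = 0.942), and KO and WT TAMs by -0.11 (95% interval -1.22 to 1.0, adjusted p = 0.933). In order of mean level the groups ran WT TAM, KO TAM, KO macrophage, WT macrophage, and the only neighbours whose arrays did not overlap were KO TAM and KO macrophage.

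The WT call of Cxcr4 held in every alternative run. The KO call was lost when the 2 KO groups were fitted alone (adjusted p = 0.0928) and without KO macrophage array 1, 2 or 3 (adjusted p = 0.0529, 0.0591 and 0.0609), with log2 differences of 2.38 to 2.47. Without KO TAM array 1 the KO co-culture difference was 1.61, still called (adjusted p = 0.00198), and the KO against WT TAM difference became -0.92 and passed the test (adjusted p = 0.0147).

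Ccr1, a receptor for Ccl3, Ccl5, Ccl6, Ccl7 and Ccl9 on monocytes, macrophages and neutrophils, had the widest span of the 6 genes over the 12 arrays, 5.93 on the log2 scale. Its log2 levels were 9.84, 7.14 and 4.33 in KO TAMs, against 4.73, 3.99 and 4.32 in KO macrophages. In WT TAMs they were 9.91, 8.68 and 9.04, against 5.58, 6.07 and 5.86 in WT macrophages. The WT groups did not overlap, while KO TAM arrays spread from the WT TAM range down to the KO macrophage range: array 1 was as high as WT TAM array 1, and array 3 sat among the KO macrophages. The 3 KO macrophage arrays all lay below the 3 WT macrophage arrays. Group means were 7.10 ± 2.75 in KO TAMs, 4.34 ± 0.37 in KO macrophages, 9.21 ± 0.63 in WT TAMs and 5.84 ± 0.25 in WT macrophages (log2 level, SD, n = 3 each).

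Ccr1 rose by 3.38 ± 0.96 (log2 difference, SE), or 10.4-fold, in WT TAMs (limma, adjusted p = 0.041). That call was lost without any one of the 6 WT arrays: the adjusted p was 0.13, 0.0588 and 0.0874 without WT TAM array 1, 2 and 3, and 0.125, 0.0918 and 0.109 without WT macrophage array 1, 2 and 3, with differences of 3.02 to 3.64. It was also lost with a variance trend and robust settings (adjusted p = 0.0895). The KO co-culture difference of 2.76 (95% interval 0.67 to 4.85) did not pass (limma, adjusted p = 0.119). It was 4.14 without KO TAM array 3 (adjusted p = 0.00311) and 1.39 without KO TAM array 1 (adjusted p = 0.277), so that a single array decided its size and its call. KO and WT TAMs differed by -2.11 (95% interval -4.20 to -0.02, adjusted p = 0.195), which became -3.47 without KO TAM array 1 (adjusted p = 0.00322) and -0.72 without KO TAM array 3 (adjusted p = 0.551).

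Between KO and WT macrophages the log2 difference of Ccr1 was -1.49 (95% interval -3.58 to 0.60). It did not pass in the model over all 12 arrays (adjusted p = 0.378), whose common spread for Ccr1 includes that of the KO TAMs, and it passed when the 2 macrophage groups were fitted alone (adjusted p = 0.0024). The KO minus WT co-culture difference was -0.62 (95% interval -3.58 to 2.34, adjusted p = 0.931). The KO macrophage mean of 4.34 lay under 4.43, the level used as a filter on dim genes. This limits what can be seen in each Ccr1 difference that uses that group. The order of the group means was WT TAM, KO TAM, WT macrophage, KO macrophage. WT macrophage and KO macrophage did not overlap on the arrays, and both other neighbouring pairs did.

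Ccr3, the receptor for eotaxins that is best known from eosinophils, was set apart by genotype. Its log2 levels were 6.71, 5.86 and 5.05 in KO TAMs, against 7.51, 7.32 and 7.81 in WT TAMs. In KO macrophages they were 4.60, 4.62 and 4.80, against 7.22, 7.66 and 7.55 in WT macrophages. All 6 KO arrays lay below all 6 WT arrays, and all 3 KO TAM arrays lay above the 3 KO macrophage arrays, while the WT groups overlapped. Group means were 5.87 ± 0.83 in KO TAMs, 4.67 ± 0.11 in KO macrophages, 7.55 ± 0.25 in WT TAMs and 7.48 ± 0.23 in WT macrophages (log2 level, SD, n = 3 each). Ccr3 was lower by 7.0-fold in KO than in WT macrophages, a log2 difference of -2.81 ± 0.31 (SE, limma, adjusted p = 0.000334), which held in every alternative run. It was lower by 3.19-fold in KO than in WT TAMs, at -1.67 ± 0.31 (limma, adjusted p = 0.00453), a call lost when the 2 TAM groups were fitted alone (adjusted p = 0.0644).

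Ccr3 rose 2.30-fold in KO TAMs relative to KO macrophages, by 1.20 ± 0.31 on the log2 scale (limma, adjusted p = 0.0392). Without KO macrophage array 1, 2 or 3 the adjusted p was 0.12, 0.118 and 0.0939, and without KO TAM array 2 it was 0.0832. Without KO TAM array 1 the difference was 0.79 and the adjusted p 0.0719. The call was also lost with a variance trend and robust settings (adjusted p = 0.0504) and with the 2 KO groups fitted alone (adjusted p = 0.142). WT TAMs and WT macrophages differed by 0.07 (95% interval -0.61 to 0.75, adjusted p = 0.931). The KO minus WT co-culture difference was 1.13 ± 0.44 (95% interval 0.18 to 2.09), which did not pass over all genes (adjusted p = 0.414). The order of the means was WT TAM, WT macrophage, KO TAM, KO macrophage, and only the first pair of neighbours overlapped.

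Several markers of stromal cells were lower in KO than in WT cells, as Ccr3 was. Of the 8 genes of the stromal list, 0 rose and 4 fell in KO relative to WT macrophages, 0 rose and 5 fell in KO relative to WT TAMs, 3 rose in KO TAMs relative to KO macrophages and 2 rose in WT TAMs relative to WT macrophages. Of all genes, 11.3% were called between macrophages (6.13% lower), 12.2% between TAMs (7.19% lower), 6.53% in KO TAMs (2.9% higher) and 11.5% in WT TAMs (5.89% higher). The mean log2 level of the list was 6.82, 6.43 and 5.78 on KO TAM arrays 1, 2 and 3, against 5.16 to 5.29 in KO macrophages, and 7.12, 8.27 and 7.26 on WT TAM arrays 1, 2 and 3, against 6.71 to 6.80 in WT macrophages. The log2 of the summed level ran from 9.30 to 10.52 in KO TAMs, 8.41 to 8.48 in KO macrophages, 11.08 to 12.38 in WT TAMs and 10.45 to 10.57 in WT macrophages. Col1a1, a fibrillar collagen chain, was at 5.69 or more on all 12 arrays. In KO TAMs the stromal mean, Ccr3 and Ccr1 ran in the same order, highest on array 1 and lowest on array 3. WT TAM array 2, with the highest stromal mean, had the lowest Ccr3 and Ccr1 levels of the 3 WT TAM arrays. The median log2 difference of the stromal list was 1.22 in KO TAMs, where that of Ccr3 was 1.2. It was 0.85 in WT TAMs, where that of Ccr3 was 0.07. Between KO and WT macrophages it was -1.34, with Ccr3 at -2.81, and between KO and WT TAMs -1.33, with Ccr3 at -1.67. In the last comparison 5 of the 8 stromal genes fell, while Dcn was at 0.64, not called (limma, adjusted p = 0.219). The part of stromal cells in these results was not tested. Of the 6 measured genes of the eosinophil list, 1 was called, Siglecf, which fell in TAMs of both genotypes, by 0.79 in KO TAMs and by 1.13 in WT TAMs on the log2 scale, and none was called between genotypes. The KO call of Siglecf was lost without KO macrophage array 2 or 3 (adjusted p = 0.0599 and 0.0554).

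Ccrl2, the atypical receptor that presents chemerin, was higher in TAMs than in macrophages and higher in KO than in WT cells. Its log2 levels were 10.62, 10.11 and 10.36 in KO TAMs, against 9.80, 9.46 and 9.55 in KO macrophages. In WT TAMs they were 9.85, 9.18 and 9.92, against 8.26, 8.32 and 8.46 in WT macrophages. The 3 WT macrophage arrays were the lowest of all, the 3 KO TAM arrays were the highest, and KO macrophages and WT TAMs lay between them and overlapped. Group means were 10.36 ± 0.26 in KO TAMs, 9.61 ± 0.17 in KO macrophages, 9.65 ± 0.41 in WT TAMs and 8.35 ± 0.10 in WT macrophages (log2 level, SD, n = 3 each). Ccrl2 rose 1.69-fold in KO TAMs relative to KO macrophages (log2 difference 0.76 ± 0.19, limma, adjusted p = 0.0326) and 2.47-fold in WT TAMs relative to WT macrophages (1.30 ± 0.19, adjusted p = 0.000989). It was 2.39-fold higher in KO than in WT macrophages (1.26 ± 0.19, limma, adjusted p = 0.00158) and 1.64-fold higher in KO than in WT TAMs (0.71 ± 0.19, adjusted p = 0.0277).

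The WT co-culture call and the call between KO and WT macrophages of Ccrl2 held in every alternative run. The KO co-culture call was lost without KO macrophage array 1, 2 or 3 (adjusted p = 0.0563, 0.122 and 0.107), without KO TAM array 1 or 3 (adjusted p = 0.104 and 0.0596) and with the 2 KO groups fitted alone (adjusted p = 0.0541). The call between KO and WT TAMs was lost without KO TAM array 1 or 3 (adjusted p = 0.0708 and 0.0696), without WT TAM array 2 (difference 0.48, adjusted p = 0.0608), without both WT TAM array 2 and KO TAM array 1 (0.35, adjusted p = 0.0944), with the 2 TAM groups fitted alone (adjusted p = 0.14) and with arrays weighted by their quality (0.40, adjusted p = 0.0794). The KO minus WT co-culture difference of Ccrl2 was -0.55 (95% interval -1.12 to 0.03, adjusted p = 0.55). It passed with array weights, at -0.85 (adjusted p = 0.04), and without WT TAM array 2 and KO TAM array 1, at -0.91 (adjusted p = 0.0121).

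**Figure D2:**
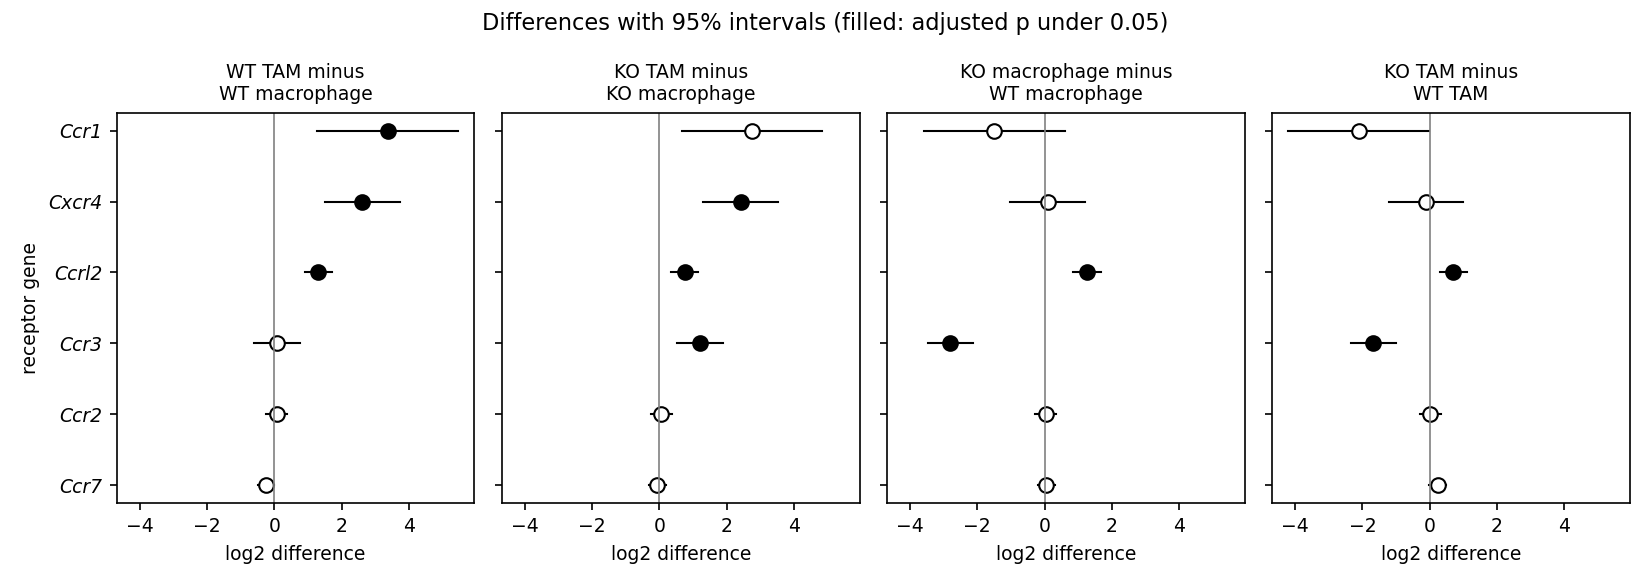
Log2 difference (x axis) of each receptor gene (y axis), with 1 panel for each of 4 comparisons and 95% intervals from limma as lines. Filled points passed at an adjusted p under 0.05. Cxcr4 and Ccrl2 were called higher in TAMs of both genotypes, Ccr3 was at -2.81 between KO and WT macrophages, and the Ccr1 intervals were the widest.

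Ccr2 and Ccr7 passed the test in none of the comparisons. Ccr2, the receptor for Ccl2 that marks classical monocytes, had log2 levels of 4.31, 3.96 and 4.11 in KO TAMs, against 3.97, 4.21 and 4.05 in KO macrophages, and of 4.39, 3.82 and 4.11 in WT TAMs, against 3.98, 3.95 and 4.17 in WT macrophages. All 4 groups overlapped, within a span of 0.57. The log2 difference of Ccr2 was 0.05 in KO TAMs relative to KO macrophages (95% interval -0.26 to 0.36) and 0.07 in WT TAMs relative to WT macrophages (95% interval -0.24 to 0.38), with adjusted p of 0.899 and 0.833 in limma's model. Between KO and WT macrophages the interval was -0.27 to 0.35, and between KO and WT TAMs -0.29 to 0.33. Its mean level lay under the 4.43 used as a filter on dim genes.

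Ccr7, the receptor that guides dendritic cells and some T cells to lymph nodes, had log2 levels of 5.82, 5.97 and 5.54 in KO TAMs, against 5.90, 5.80 and 5.80 in KO macrophages, and of 5.55, 5.62 and 5.45 in WT TAMs, against 5.87, 5.62 and 5.86 in WT macrophages. In each of the 4 comparisons the arrays of both groups overlapped, and the span was 0.52. The log2 difference of Ccr7 was -0.06 in KO TAMs (95% interval -0.31 to 0.19, adjusted p = 0.844) and -0.24 in WT TAMs (95% interval -0.49 to 0.00, adjusted p = 0.221), in limma's model. Between KO and WT TAMs it was 0.24 (95% interval -0.01 to 0.49, adjusted p = 0.221), which passed only with array weights, at 0.36 (adjusted p = 0.0457), and between KO and WT macrophages it was 0.05 (adjusted p = 0.837).

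Across the 12 arrays, which include the differences between groups, Ccr1 and Cxcr4 had a Pearson correlation of log2 levels of 0.87, Ccr1 and Ccr3 of 0.69, Cxcr4 and Ccrl2 of 0.68, and Ccr3 and Ccrl2 of -0.41. Of 17398 other named genes, those whose levels ran closest to Cxcr4 were Kif3a (0.99), Tmlhe (0.988), Acox3 (0.985), Il21r (0.982) and Lyst (0.981). Closest to Ccr1 were Paf1 (0.983), Vav3 (0.98), St6gal1 (0.98), Itgb5 (0.978) and Gda (0.974). Closest to Ccr3 were Emp2 (0.99), Cd9 (0.989), Plp2 (0.986), S100a6 (0.977) and Myadm (0.974), and closest to Ccrl2 were Dennd1b (0.985), Uvrag (0.982), Rragc (0.979), Wdr7 (0.974) and Vps39 (0.973). The genes nearest to Ccr7, Adcy5 (0.926), Gpr4 (0.926) and Rabep2 (0.915), and to Ccr2, Adamts18 (0.87) and Ccnh (0.87), had lower correlations. These are descriptions over arrays that share groups, and the best of many genes correlate highly in 12 arrays.

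Of the measured ligands of these receptors, 4 of 10 rose in TAMs of each genotype. Of 15 distinct ligands, 10 were measured, and Ccl19, 3 Ccl21 genes and Rarres2, the gene of chemerin, were not analysed here. In KO TAMs relative to KO macrophages 4 rose (Ccl6, Ccl7, Ccl9 and Ccl12) and 0 fell, and in WT TAMs relative to WT macrophages 4 rose (Ccl2, Ccl6, Ccl7 and Ccl12) and 0 fell. In KO relative to WT macrophages 0 rose and 2 fell (Ccl9 and Cxcl12), and in KO relative to WT TAMs 1 rose (Ccl5) and 4 fell (Ccl2, Ccl7, Ccl9 and Cxcl12). The median log2 difference of the 10 was 0.73 in the KO co-culture comparison, 0.49 in the WT one, -0.16 between macrophages and -0.44 between TAMs, beside -0.013, 0.008, 0.038 and 0.024 over all genes in the same order. The share of all genes called was 6.53%, 11.5%, 11.3% and 12.2% in that order.

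**Figure D3:**
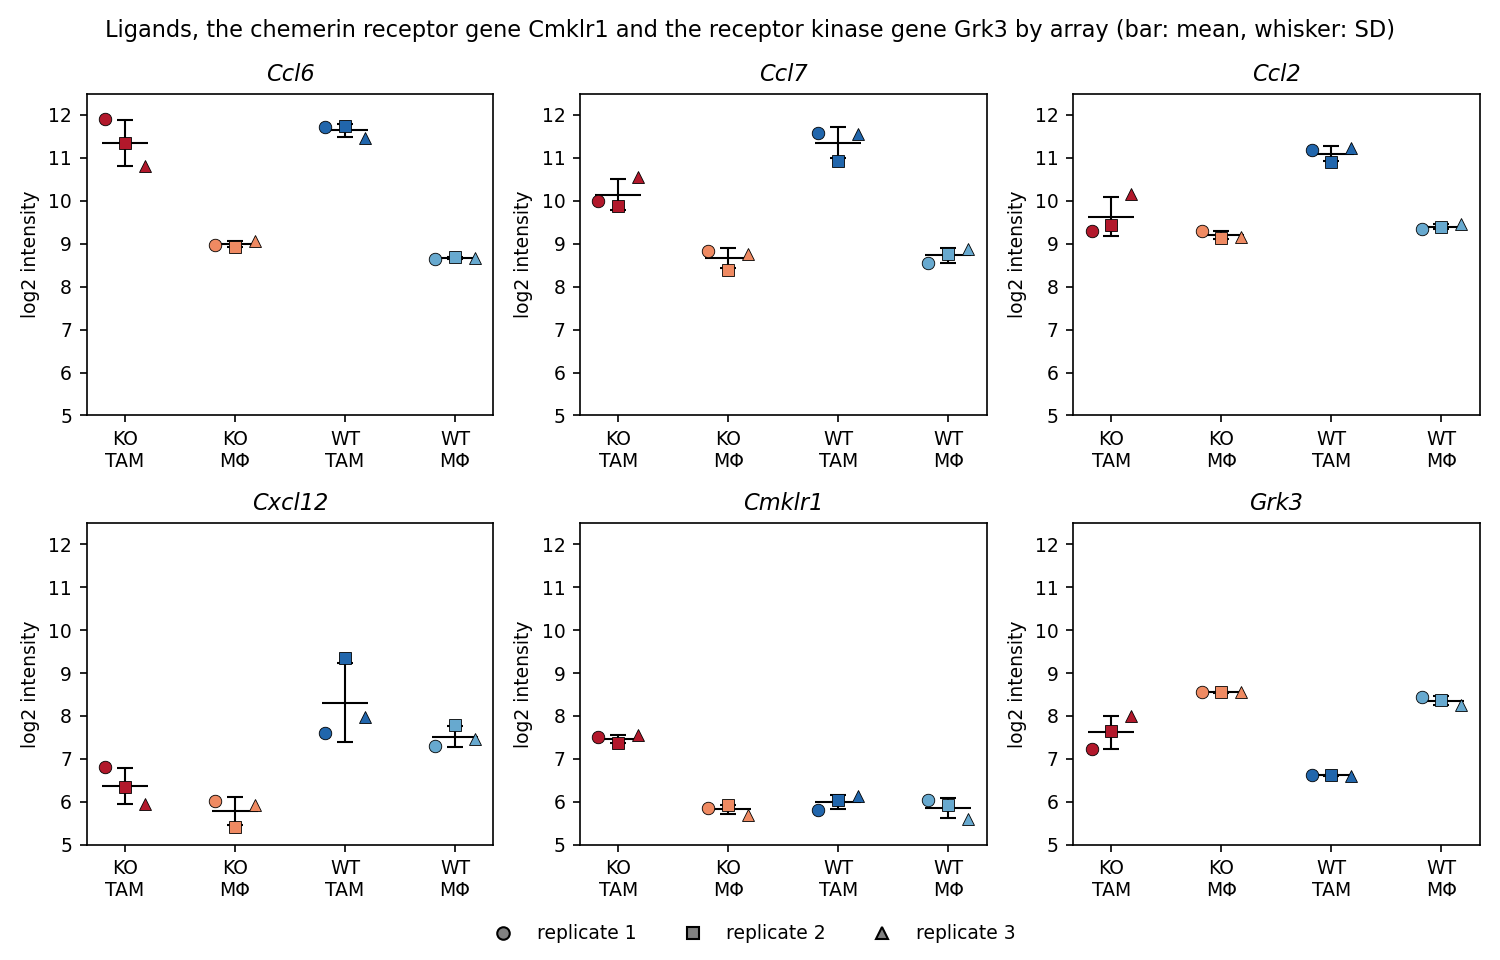
Log2 level (y axis, log2 intensity) of the ligand genes Ccl6, Ccl7, Ccl2 and Cxcl12, the chemerin receptor gene Cmklr1 and the receptor kinase gene Grk3 on every array, 1 panel per gene, with the groups KO TAM, KO macrophage, WT TAM and WT macrophage along the x axis. Points are arrays and bars are group means with SD (n = 3). Ccl6 lay higher and Grk3 lower on all TAM arrays than on all macrophage arrays, Cxcl12 was lower on all KO than on all WT arrays, and Cmklr1 was highest in KO TAMs.

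Of the ligands of Ccr1, Ccl6 had log2 levels of 11.90, 11.34 and 10.82 in KO TAMs, against 8.98, 8.93 and 9.06 in KO macrophages, and of 11.72, 11.74 and 11.46 in WT TAMs, against 8.65, 8.70 and 8.66 in WT macrophages. TAM and macrophage arrays did not overlap. It rose by 2.36 ± 0.20 in KO TAMs (limma, adjusted p = 7.16e-05) and by 2.97 ± 0.20 in WT TAMs (adjusted p = 1.14e-05). Ccl9, which also binds Ccr1, had 12.58, 11.91 and 11.73 in KO TAMs, against 11.25, 11.22 and 11.09 in KO macrophages, and lay between 12.46 and 12.74 on all 6 WT arrays. Ccl9 was lower by 1.33 ± 0.17 in KO than in WT macrophages (limma, adjusted p = 0.000733). It was lower by 0.59 ± 0.17 in KO than in WT TAMs (adjusted p = 0.0394), a call lost without any one of WT TAM arrays 1, 2 and 3 and KO TAM arrays 2 and 3 (adjusted p = 0.0547 to 0.14). Its rise of 0.89 ± 0.17 in KO TAMs (adjusted p = 0.00999) was lost with the 2 KO groups fitted alone (adjusted p = 0.0777). Ccl3 lay between 12.02 and 12.91 on all arrays and passed no test.

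Ccl7, a ligand of Ccr1, Ccr2 and Ccr3, had log2 levels of 9.99, 9.88 and 10.55 in KO TAMs, against 8.84, 8.40 and 8.77 in KO macrophages, and of 11.57, 10.93 and 11.55 in WT TAMs, against 8.54, 8.77 and 8.87 in WT macrophages. TAMs of each genotype lay above their macrophages, and KO TAMs lay below WT TAMs on every array. Ccl7 rose by 1.47 ± 0.21 in KO TAMs (limma, adjusted p = 0.00188) and by 2.62 ± 0.21 in WT TAMs (adjusted p = 2.35e-05), and it was lower by 1.21 ± 0.21 in KO than in WT TAMs (adjusted p = 0.003). The KO minus WT co-culture difference of Ccl7, -1.15, did not pass (adjusted p = 0.178).

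Ccl2, the main ligand of Ccr2, had log2 levels of 9.30, 9.44 and 10.16 in KO TAMs, against 9.30, 9.14 and 9.16 in KO macrophages, and of 11.18, 10.90 and 11.22 in WT TAMs, against 9.34, 9.39 and 9.46 in WT macrophages. WT TAM arrays were all above the other 9 arrays, and the KO groups overlapped. Ccl2 rose by 1.71 ± 0.18 in WT TAMs (limma, adjusted p = 0.000181), and the difference in KO TAMs was 0.43 (adjusted p = 0.209). KO TAMs were lower than WT TAMs by 1.47 ± 0.18 (adjusted p = 0.00043), while the test of the difference between the co-culture responses, -1.28, did not pass over all genes (adjusted p = 0.0845). Ccl12, another ligand of Ccr2, rose by 3.0 ± 0.35 in KO TAMs (adjusted p = 0.000599) and by 3.14 ± 0.35 in WT TAMs (adjusted p = 0.000235).

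Of the ligands of Ccr3, the eotaxins Ccl11 and Ccl24 were called in no comparison, and their log2 differences lay between -0.18 and 0.25. Ccl5, a T cell and monocyte attractant that binds Ccr1 and Ccr3, had log2 levels of 7.77, 7.84 and 9.87 in KO TAMs, against 6.31, 7.07 and 6.63 in WT TAMs. The KO TAM arrays all lay above the WT TAM arrays, with array 3 far above the other 2. Ccl5 was higher by 1.82 ± 0.43 in KO than in WT TAMs (limma, adjusted p = 0.0168), a call that was lost with the 2 TAM groups fitted alone (adjusted p = 0.126) and without WT TAM array 1 or WT TAM array 3 (adjusted p = 0.0615 and 0.0512).

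Cxcl12, the ligand of Cxcr4, had log2 levels of 6.80, 6.35 and 5.95 in KO TAMs, against 7.60, 9.36 and 7.98 in WT TAMs, and of 6.03, 5.42 and 5.92 in KO macrophages, against 7.31, 7.78 and 7.47 in WT macrophages. All 6 KO arrays lay below all 6 WT arrays, and WT TAM array 2 was the highest. Cxcl12 was lower by 1.95 ± 0.37 in KO than in WT TAMs (limma, adjusted p = 0.00545, 0.0644 with the 2 groups alone) and by 1.73 ± 0.37 in KO than in WT macrophages (adjusted p = 0.0112, lost without WT macrophage array 2 or KO macrophage array 2 (adjusted p = 0.0507 and 0.052)). Cxcl12 is a product of stromal cells, and the stromal list, whose levels are given above, was high on the same array and low in the same KO groups. Their part in the result was not tested. The co-culture differences of Cxcl12, 0.58 in KO cells and 0.79 in WT cells, did not pass (adjusted p = 0.445 and 0.227).

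Among genes that carry or end the signal of these receptors, more fell than rose in TAMs of both genotypes. Of 34 listed G proteins, receptor kinases, arrestins, regulators of G protein signalling and effectors, 30 were measured. In KO TAMs relative to KO macrophages 0 rose and 9 fell, with a median log2 difference of -0.31, and in WT TAMs relative to WT macrophages 1 rose and 14 fell, with a median of -0.28. In KO relative to WT macrophages 4 rose and 5 fell (median -0.02), and in KO relative to WT TAMs 6 rose and 2 fell (median 0.09). Of all genes 2.9% were called higher and 3.63% lower in KO TAMs, and 5.89% higher and 5.66% lower in WT TAMs. Between KO and WT macrophages 5.19% were called higher and 6.13% lower, and between KO and WT TAMs 5.03% and 7.19%.

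Grk3, a kinase that phosphorylates active receptors and helps to switch them off, had log2 levels of 7.22, 7.64 and 8.0 in KO TAMs, against 8.55, 8.55 and 8.57 in KO macrophages, and of 6.62, 6.62 and 6.61 in WT TAMs, against 8.45, 8.37 and 8.25 in WT macrophages. TAMs lay below macrophages on every array, and KO TAMs lay above WT TAMs on every array. Grk3 fell by 0.94 ± 0.15 in KO TAMs (limma, adjusted p = 0.00375) and by 1.74 ± 0.15 in WT TAMs (adjusted p = 4.51e-05), and it was higher by 1.0 ± 0.15 in KO than in WT TAMs (adjusted p = 0.00129). The KO minus WT co-culture difference of 0.80 did not pass (adjusted p = 0.197). Grk6, another receptor kinase, fell by 0.60 ± 0.09 in KO TAMs (adjusted p = 0.00273) and by 1.15 ± 0.09 in WT TAMs (adjusted p = 2.35e-05). Grk5 fell by 1.58 ± 0.20 in WT TAMs (adjusted p = 0.000535), and its difference of -0.64 in KO TAMs did not pass (adjusted p = 0.0927).

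Pik3cg, the catalytic subunit of the lipid kinase that G protein-coupled receptors activate in leukocytes, had log2 levels of 8.83, 10.43 and 10.57 in KO TAMs, against 11.26, 11.28 and 11.32 in KO macrophages, and of 9.73, 9.47 and 9.86 in WT TAMs, against 11.17, 11.22 and 11.19 in WT macrophages. All TAM arrays lay below all macrophage arrays, and KO TAM array 1 was the lowest of the 12. It fell by 1.34 ± 0.34 in KO TAMs (limma, adjusted p = 0.035) and by 1.51 ± 0.34 in WT TAMs (adjusted p = 0.0129), and the KO call was lost without KO macrophage array 1, KO macrophage array 2 or KO macrophage array 3 (adjusted p = 0.0992, 0.103 and 0.107). The signalling gene that rose in WT TAMs was Rgs1, which speeds the shut-off of G proteins, by 0.86 ± 0.10 (adjusted p = 0.000322).

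**Figure D4:**
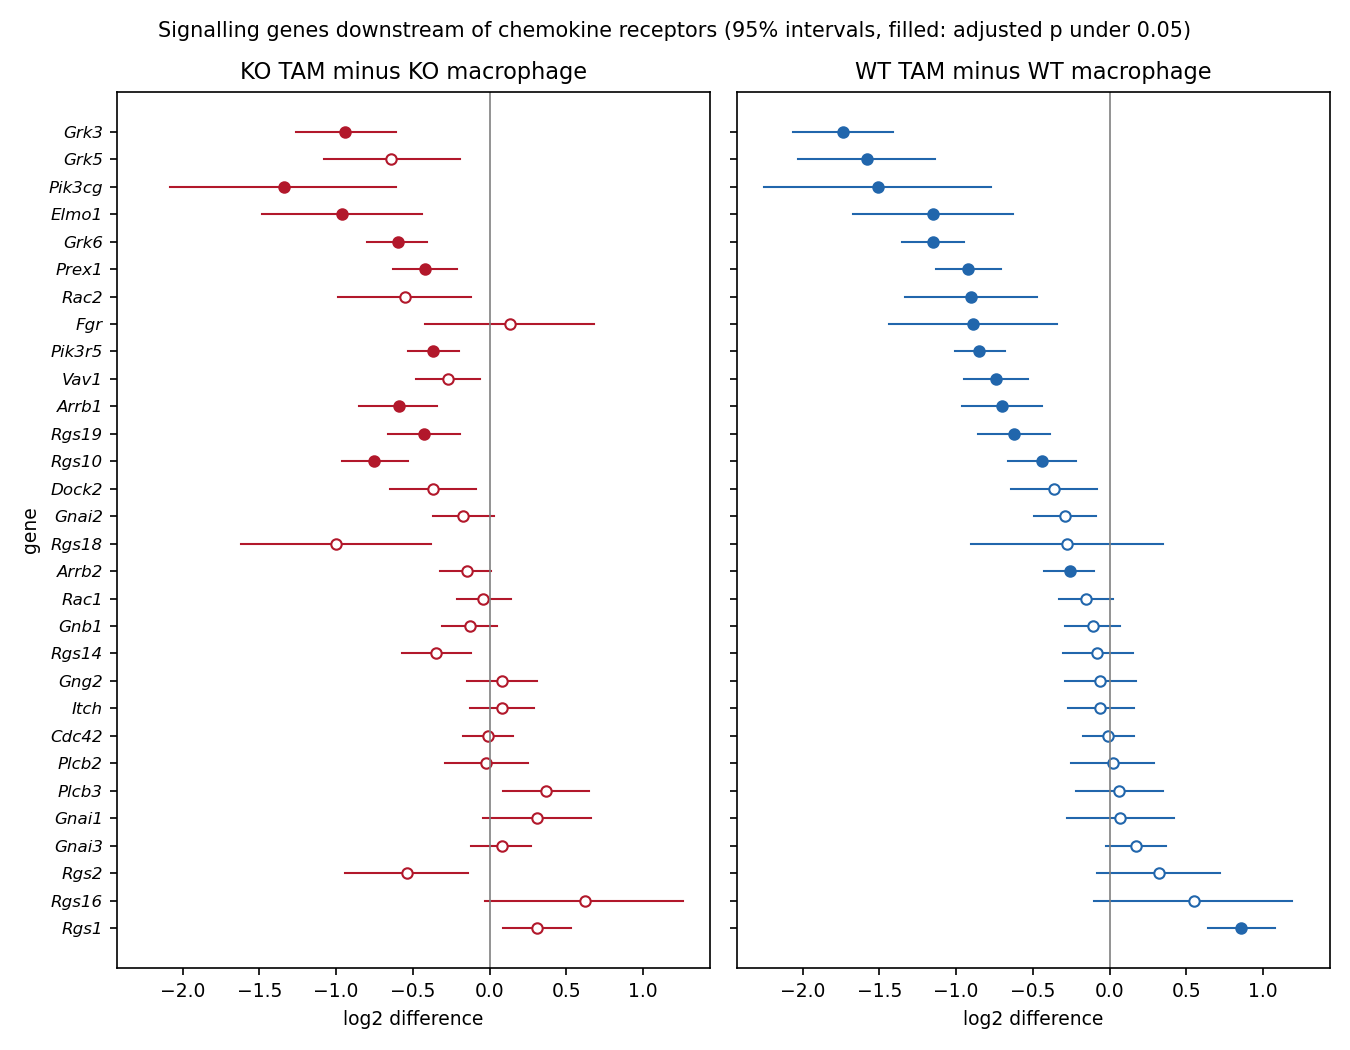
Log2 differences (x axis) of the 30 measured genes of the signalling list (y axis), in KO TAMs relative to KO macrophages (left panel) and in WT TAMs relative to WT macrophages (right panel), with 95% intervals as lines. Filled points passed at an adjusted p under 0.05. Most called genes lie left of 0, and Grk3 was at -0.94 in KO TAMs and -1.74 in WT TAMs.

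Of the other chemokine and chemokine-like receptors, 18 were measured. In KO TAMs relative to KO macrophages 1 rose (Cmklr1) and 1 fell (Xcr1), in WT TAMs relative to WT macrophages 0 rose and 1 fell (Xcr1), in KO relative to WT macrophages 1 rose (Xcr1), and in KO relative to WT TAMs 1 rose (Cmklr1). Each of these counts is read against 6.53%, 11.5%, 11.3% and 12.2% of all genes called. Cmklr1, the signalling receptor for the chemerin that Ccrl2 presents, had log2 levels of 7.50, 7.37 and 7.55 in KO TAMs, against 5.85, 5.92 and 5.70 in KO macrophages, and of 5.82, 6.05 and 6.13 in WT TAMs, against 6.05, 5.93 and 5.59 in WT macrophages. The 3 KO TAM arrays stood above the other 9, which overlapped. Cmklr1 rose 3.14-fold in KO TAMs relative to KO macrophages (log2 difference 1.65 ± 0.13, limma, adjusted p = 4.26e-05) and was 2.79-fold higher in KO than in WT TAMs (1.48 ± 0.13, adjusted p = 7.7e-05). The difference in WT TAMs was 0.14 (adjusted p = 0.573), and the KO minus WT co-culture difference passed, at 1.51 ± 0.18 (adjusted p = 0.00746). Xcr1, a receptor of cross-presenting dendritic cells that neighbours Ccr1, had log2 levels of 4.34, 4.66 and 4.77 in KO TAMs, against 5.10, 5.29 and 5.25 in KO macrophages, and fell there by 0.62 ± 0.12 (adjusted p = 0.00891, 0.0581 with the 2 KO groups alone). Its fall of 0.45 ± 0.12 in WT TAMs (adjusted p = 0.0255) was lost without WT TAM array 1 or 2 or WT macrophage array 2 or 3 (adjusted p = 0.0509 to 0.0983), and its rise of 0.50 ± 0.12 in KO relative to WT macrophages (adjusted p = 0.0168) without KO macrophage array 2 or 3 or WT macrophage array 1 (adjusted p = 0.0605 to 0.0773). Xcr1 was dim, with group means from 4.26 in WT TAMs to 5.21 in KO macrophages, under the median of 5.34 over all gene means. Cx3cr1, the fractalkine receptor, passed no test, with log2 differences of -0.28 to -0.18.

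Genes that accompany Ccr2 on classical monocytes and Ccr7 on mature dendritic cells were counted beside those 2 receptors. Of 9 measured genes of the classical monocyte list, 2 rose and 0 fell in KO TAMs, 1 rose and 0 fell in WT TAMs, 0 rose and 2 fell in KO relative to WT macrophages, and 1 rose and 1 fell in KO relative to WT TAMs. Of all genes 6.53%, 11.5%, 11.3% and 12.2% were called in these comparisons, so 1 of 9 in WT TAMs is near that share. Ly6c2, the Ly6C antigen, rose by 1.10 ± 0.21 in WT TAMs (limma, adjusted p = 0.00478) and by 0.98 ± 0.21 in KO TAMs (adjusted p = 0.016). Its means of 4.16 in WT and 4.22 in KO macrophages lay under the dim-gene filter of 4.43. Fn1, fibronectin, rose by 2.72 ± 0.61 in KO TAMs (adjusted p = 0.0219) and was lower by 2.58 ± 0.61 in KO than in WT TAMs (adjusted p = 0.0171). Leaving out 1 array could end each of these calls but that of Ly6c2 in WT TAMs (adjusted p = 0.0567 to 0.0759). In WT TAMs Ms4a4c was at -0.99 and Hp at -0.49, not called. Of 11 genes of the nonclassical monocyte list, 0 rose and 3 fell in KO TAMs, 0 rose and 6 fell in WT TAMs, 1 rose and 2 fell in KO relative to WT macrophages, and 2 rose and 0 fell in KO relative to WT TAMs, beside the same shares of all genes. Cd300e, an activating receptor of monocytes, had log2 levels of 5.46, 9.18 and 9.64 in KO TAMs, against 10.53, 10.41 and 10.59 in KO macrophages, and of 5.88, 7.48 and 6.24 in WT TAMs, against 10.82, 10.78 and 10.71 in WT macrophages. KO TAM array 1, the highest of its group in Ccr1 and Cxcr4, was the lowest in Cd300e. Cd300e fell by 4.24 ± 0.82 in WT TAMs (adjusted p = 0.00576), and its difference of -2.41 in KO TAMs did not pass (adjusted p = 0.11).

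Of 14 measured genes of the mature dendritic list, 0 rose and 1 fell in KO TAMs, 1 rose and 2 fell in WT TAMs, 1 rose and 0 fell in KO relative to WT macrophages, and 2 rose and 1 fell in KO relative to WT TAMs. The 1 of 14 called in KO TAMs is near the 6.53% of all genes, and the 1 of 14 between KO and WT macrophages is under the 11.3% of all genes. In WT TAMs 11.5% of all genes were called, and between KO and WT TAMs 12.2%. Birc3, an inhibitor of apoptosis that NF-kappaB induces, fell by 1.05 ± 0.16 in WT TAMs (limma, adjusted p = 0.00124). Batf3, a transcription factor of cross-presenting dendritic cells, fell by 1.45 ± 0.26 in WT TAMs (adjusted p = 0.00364) and by 1.10 ± 0.26 in KO TAMs (adjusted p = 0.0273), and the KO call was lost without KO macrophage array 1, KO macrophage array 3 or KO TAM array 1 (adjusted p = 0.088, 0.111 and 0.0593).

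Of 8 macrophage markers, 4 rose and 1 fell in KO TAMs relative to KO macrophages, and 2 rose and 2 fell in WT TAMs relative to WT macrophages. In KO relative to WT macrophages 1 rose and 1 fell, and in KO relative to WT TAMs 1 rose and 0 fell. Of all genes 6.53%, 11.5%, 11.3% and 12.2% were called in these comparisons, in that order. Cd68, a lysosomal glycoprotein of macrophages, rose by 0.83 ± 0.08 in KO TAMs (limma, adjusted p = 0.000235) and by 0.81 ± 0.08 in WT TAMs (adjusted p = 0.000144). The mean log2 level of the list was 11.83 to 12.02 in KO TAMs, 11.48 to 11.49 in KO macrophages, 11.71 to 11.76 in WT TAMs and 11.63 to 11.67 in WT macrophages.

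Single genes of the lists for other cell types were bright and were called in some comparisons, in directions that differed between genes. Of 9 measured plasma cell and myeloma markers, 0 rose and 2 fell in TAMs of each genotype, 0 rose and 1 fell in KO relative to WT macrophages, and 1 rose and 0 fell in KO relative to WT TAMs. Of all genes 6.53% were called in KO TAMs, 11.5% in WT TAMs, 11.3% between macrophages and 12.2% between TAMs. The 1 of 9 in each comparison of genotypes is near that share. Ighm, the heavy chain of IgM, had log2 levels of 6.57, 10.25 and 9.44 in KO TAMs, against 11.64, 11.68 and 11.62 in KO macrophages, and of 6.25, 5.65 and 5.30 in WT TAMs, against 9.53, 9.75 and 9.64 in WT macrophages. It was lower on every TAM array than on the macrophage arrays of its genotype, and KO TAM array 1 lay apart from its 2 companions. Ighm was higher by 3.02 ± 0.67 in KO than in WT TAMs (limma, adjusted p = 0.0124), a call lost without KO TAM array 3 (2.68, adjusted p = 0.0503) and with the 2 TAM groups fitted alone (adjusted p = 0.114).

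Of 10 neutrophil markers, 1 was called, Mmp8, a collagenase, in KO against WT macrophages. That is near the 11.3% of all genes called there. Its log2 levels were 10.05, 7.32 and 5.26 in KO TAMs, against 5.20, 5.40 and 4.91 in KO macrophages, and 10.29, 8.56 and 9.58 in WT TAMs, against 8.48, 8.60 and 8.72 in WT macrophages. As for Ccr1, KO TAM array 1 was as high as the WT TAMs and array 3 lay in the range of the KO macrophages. Mmp8 was lower by 3.43 ± 0.86 in KO than in WT macrophages (limma, adjusted p = 0.0244), a call lost without any one of the 6 macrophage arrays (adjusted p = 0.062 to 0.0784).

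The counts for the T and NK cell, B cell, dendritic and mast cell lists stand beside the shares of all genes called. These were 6.53% in KO TAMs, 11.5% in WT TAMs, 11.3% between macrophages and 12.2% between TAMs. Of 7 measured T and NK cell markers, 1 was called, Cd4, a T cell co-receptor that macrophages can also carry. Cd4 was called in WT TAMs and in both comparisons of genotypes, where 1 of 7 is near the share of all genes. Cd4 had log2 levels of 8.28, 8.84 and 9.88 in KO TAMs, against 7.14, 6.53 and 7.14 in WT TAMs, and of 7.84, 8.10 and 7.96 in KO macrophages, against 5.87, 5.80 and 5.81 in WT macrophages. All KO arrays lay above all WT arrays. Cd4 was higher by 2.06 ± 0.31 in KO than in WT TAMs (limma, adjusted p = 0.0013) and by 2.14 ± 0.31 in KO than in WT macrophages (adjusted p = 0.00129), and it rose by 1.11 ± 0.31 in WT TAMs (adjusted p = 0.0363), a call lost without WT TAM array 1 or 3 or any WT macrophage array (adjusted p = 0.0957 to 0.117). Of 5 measured B cell markers, 1 was called, Cd79b, a part of the B cell receptor, which fell by 1.82 ± 0.44 in WT TAMs (adjusted p = 0.0187) and was higher by 1.5 ± 0.44 in KO than in WT TAMs (adjusted p = 0.0439). The first call was lost without WT TAM array 1 or 3 or any WT macrophage array (adjusted p = 0.0559 to 0.0679), and the second without WT TAM array 1 or 3 or KO TAM array 2 or 3 (adjusted p = 0.125 to 0.167). In KO TAMs Cd79b differed by -1.57 from KO macrophages, lower on every array but not called (adjusted p = 0.0549). Its mean was 9.1 in KO macrophages and 7.85 in WT macrophages. Of 7 measured dendritic markers 2 were called, Xcr1 as given above and Itgax, an integrin chain of dendritic cells and some macrophages. Itgax fell in KO relative to WT macrophages (adjusted p = 0.0165, lost without KO macrophage array 1 or 3 or WT macrophage array 2 or 3, at 0.0571 to 0.0683) and in KO relative to WT TAMs (adjusted p = 0.0166, lost without KO TAM array 2 or 3 or WT TAM array 1 or 3, at 0.06 to 0.0679). Of 6 mast cell and basophil markers 0 were called in limma's model, and 1 had an unadjusted p under 0.05, in WT TAMs. The part of other cell types in the receptor results was not tested.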

How the data were processed

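Intensity values, 1 per probe set and array, were deposited in 1 table that the authors made with RMA per the submitters' processing notes, which also name limma and give no versions. RMA equalises the distributions of the arrays, which hides a change that most genes share. The median over an array of the deposited intensity lay between 31.3 and 33.3, and log2 of the deposited intensity was taken with no pseudocount and no filter. No genome build is named in the labels. Of 41345 probe sets, 23521 had 1 gene symbol in the array's annotation, 1814 had several and 16010 had none. Only the first kind was used, and the probe set with the highest mean stood for a gene (1082 genes had several), which gave 22180 genes. RefSeq's table of assembly GRCm38.p6 held 23328 of these probe sets, and 0 symbols changed.

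Groups and replicate numbers came from the sample titles. Differences were fitted with limma 3.58.1 in R 4.3.3 on 4 group means over all 12 arrays (8 residual degrees of freedom), and calls were made at an adjusted p under 0.05 (Benjamini-Hochberg, over all genes). The interaction sets the co-culture difference of KO cells, first, against that of WT cells. The labels do not say that arrays came from separate animals or cultures, so p-values cover the spread among these samples alone, technical or not, and the number of arrays limits the precision. The fit was tested on simulated data. The 6 receptors and the lists of ligands, signalling genes, other receptors, monocyte and dendritic genes and cell type markers were written from textbook knowledge, and were chosen with earlier results of these data known. Genes were named by a rule: the 6 receptors, their ligands, up to 4 called genes of a list and comparison by size of difference, the 5 genes most like each receptor, Cd36, sex-linked genes and markers; within it, mostly genes whose calls held were given, and Grk6 beside Grk3, Rgs1, Ly6c2 and Birc3 were kept after their values were seen. Genes of the lists without a probe set of 1 symbol were not analysed here. Alternatives were the replicate number as a block, array weights, centring, quantile normalization again, a variance trend with robust settings, a filter on dim genes, the mean over probe sets, the compared groups alone, 2 arrays left out together, and each array left out in turn.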

Additional observations from a re-analysis of the deposited data

Results flagged for a closer look

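The lists held 180 genes, the 6 receptors among them and some not measured. In limma's interaction test 3 of them were called, beside 0.194% of all genes. In these 3 the co-culture difference itself differed between genotypes, given here as KO minus WT on the log2 scale. It was 1.51 for Cmklr1, the chemerin receptor (adjusted p = 0.00746), which held in every alternative run. It was 1.16 for Fcgr1, the high-affinity Fc receptor for IgG (adjusted p = 0.00366): Fcgr1 lay at 11.73, 11.48 and 11.73 in KO TAMs, against 10.26, 10.24 and 10.23 in KO macrophages, and at 11.48, 11.50 and 11.50 in WT TAMs, against 11.22, 11.21 and 11.32 in WT macrophages. The KO macrophages were thus the low group. It was 1.61 for Spn, the sialophorin CD43 of nonclassical monocytes (adjusted p = 0.0122), which lay at 6.03, 6.47 and 6.09 in KO TAMs, against 6.98, 7.03 and 7.05 in KO macrophages, and at 6.44, 6.23 and 6.85 in WT TAMs, against 9.08, 8.97 and 8.77 in WT macrophages. The call for Spn was lost without KO macrophage array 1 or 3 (adjusted p = 0.0558 and 0.0512) or WT macrophage array 1 or 2 (adjusted p = 0.0515 and 0.0557). None of the 6 chemokine receptors passed that test. Dixon's test for a single array was not run, since groups held 3 arrays.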

How the results depend on the processing

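Of the 10 receptor calls, 4 held in every alternative run, no called difference changed sign, and 30 of 475 alternative values of the receptors changed sign, all of differences that were not called. In the order KO TAM against KO macrophage, WT TAM against WT macrophage, KO against WT macrophage, KO against WT TAM, and interaction, 3, 3, 2, 2 and 0 receptors were called, and 1449, 2561, 2512, 2710 and 43 genes in all. Leaving out each array in turn gave 0 to 3, 2 to 2, 2 to 2, 1 to 3 and 0 to 0 receptors, and 611 to 1659, 1475 to 2671, 1403 to 1503, 1749 to 3710 and 14 to 444 genes. With only the compared groups in the fit, 0 receptors were called in KO TAMs against KO macrophages and 0 in KO against WT TAMs, among 505 and 638 genes, and 4716 genes were called in KO against WT macrophages. Array weights gave 4, 3, 2, 3 and 1 receptors in that order, and 2705, 3976, 4923, 4725 and 761 genes. The 1 receptor in the interaction was Ccrl2. Leaving out WT TAM array 2 and KO TAM array 1 gave 2, 3, 2, 3 and 2 receptors, and 2147, 4049, 4558, 4480 and 1496 genes. The 2 receptors in the interaction were Cxcr4 and Ccrl2. For the interaction, a trend with robust settings gave 99 genes and the filter on dim genes 70. Quantile normalization again turned the split in KO against WT TAMs to 1462 higher and 1429 lower genes, against 1116 and 1594 as deposited, and that in KO against WT macrophages to 1400 and 1282, against 1152 and 1360. The cause of these shifts was not tested. With the replicate block 2, 3, 2, 2 and 0 receptors were called (Ccr3 was lost in KO TAMs, adjusted p = 0.0625), and 1326, 2423, 2311, 2564 and 26 genes. The labels do not say that equal numbers share an animal or batch, and deviations of same-numbered arrays correlated between -0.039 and 0.271 over genes, so the numbers were not taken to pair the arrays. Ccr2 was dim, and so was Ccr1 in KO macrophages, which limits what can be seen of them.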
